A study of Gallus gallus with 12 samples.

Results

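Autosomal sex differences in chicken primordial germ cells (PGCs) were examined at E2.5, the stage at which the cells circulate in the embryonic blood (circulating PGCs, cPGCs). A gene was included if it lay on a numbered chromosome and reached 1 TPM in 2 or more of the 4 E2.5 libraries, which left 11756 of the 24356 genes in the table, or of the 22504 on numbered chromosomes. TPM is a length-corrected read number, made to add up to the same total in each library. The groups were female (ZW) and male (ZZ) white Leghorn embryos at E2.5, with 2 libraries per sex. Each library came from a separate pool of 6 to 14 embryos, whose SSEA-1-positive blood cells were sorted by FACS. Gonadal PGCs (gPGCs), sorted at E4.5 or E6.5 into 2 pools per sex and stage, served only for comparison. Embryos within a pool cannot be told apart, so every comparison below is between 2 pools per sex.

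In birds the female carries a Z and a W chromosome and the male a pair of Z chromosomes, while both sexes carry the same autosomes. PGCs arise outside the gonad, travel through the blood vessels and settle in the genital ridge, where gonadal sex differentiation follows later. They are held in the germ line by genes such as *DAZL*, an RNA-binding protein gene, and *NANOG*, a pluripotency factor gene, and by a piRNA pathway that silences transposons. The libraries are bulk samples of sorted cells, in which fewer cells of a type and less RNA per cell cannot be told apart.

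The E2.5 libraries held 10546302 and 9115332 reads on genes in ZW and 12099377 and 13749166 in ZZ. A single read on a gene of 1000 bases came to between 0.129 and 0.186 TPM. Hemoglobin genes took 16.5% and 0.257% of TPM in the ZW libraries, against 4.45% and 1.59% in the ZZ libraries, so all values were first divided by median-of-ratios size factors of 0.772 and 1.002 in ZW and 1.23 and 1.05 in ZZ. Values given below in TPM are these scaled values. The 5 hemoglobin genes tested had log2 differences of -0.11 to 0.15 between the sexes, and *HBA1* had 32590 and 386 TPM in ZW and 4823 and 2109 TPM in ZZ. Of the defining germ cell markers, *DAZL* had 2393 and 2247 TPM in ZW and 1808 and 2411 TPM in ZZ, the Z-linked *DDX4* had 208 and 191 TPM in ZW and 554 and 302 TPM in ZZ, and *NANOG* had 393 and 147 TPM in ZW and 833 and 312 TPM in ZZ. Summed over the 28 germ cell markers in the table, of which 27 were tested, the level was 7886 to 8533 TPM in ZW and 7749 to 7837 TPM in ZZ. Marker lists of other cells were summed too, and gave 47.7 to 152 TPM in ZW and 43.3 to 88.1 TPM in ZZ for thrombocytes and 35.7 to 58.6 TPM in ZW and 38.1 to 131 TPM in ZZ for leukocytes. Of the defining thrombocyte markers, *ITGA2B* was at or below 0.0865 TPM in every library, while *TUBB1* had 113 and 13.7 TPM in ZW and 51.9 and 17.5 TPM in ZZ. Of the endothelial ones, *KDR* was at or below 0.215 TPM, while *PECAM1* had 8.94 and 13.4 TPM in ZW and 9.08 and 9.07 TPM in ZZ and *CDH5* had 1.57 and 3.20 TPM in ZW and 0.728 and 2.29 TPM in ZZ. The endothelial sums did not overlap, with 38.6 and 45.9 TPM in ZW and 35.8 and 32.4 TPM in ZZ. Mesenchyme markers summed to 19.4 and 32.0 TPM in ZW and 19.4 and 30.6 TPM in ZZ. Among them *COL1A1* did not overlap (2.43 and 2.13 TPM in ZW, 0.582 and 0.757 TPM in ZZ). *COL1A2* overlapped, and *PDGFRA* was at or below 0.0493 TPM. The part of other cells in the sex differences was not tested.

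Few autosomal genes had a sex difference in cPGCs that was detectable with 2 pools per sex. By limma with Benjamini-Hochberg adjustment over all 12381 genes tested, 3 of the 11756 autosomal genes had an adjusted p under 0.05, of which 2 were higher in ZW and 1 in ZZ. Without the first or the second ZZ library, 0 autosomal genes passed. Of all genes tested, 0.226% passed this threshold, and 23 of the 28 that did were W-linked. With a log2 difference of 3 or more in size as a further condition, 1 autosomal gene was left, against 0.194% of all genes tested. At an unadjusted p under 0.05 there were 452 autosomal genes higher in ZW (3.84%) and 390 higher in ZZ (3.32%).

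The autosomal log2 differences (ZW minus ZZ, on log2 of scaled TPM + 1) centred on 0.00, with quartiles of -0.34 and 0.35 and the whole range from -2.92 to 3.85. The median size of the difference was 0.35 between the sexes, 0.39 between the ZW pools and 0.49 between the ZZ pools. The sex difference is between means of 2 pools, and the pool differences are between single pools. Averaging narrows the first, so these sizes cannot be compared directly. On these unlike measures, 23.2% of the genes differed more between the sexes than between either pair of pools. By contrast the 29 W-linked genes tested had a median of 4.47, with all 29 higher in both ZW libraries, and the 596 Z-linked genes had a median of -0.76. Both ZW values lay above both ZZ values in 2390 autosomal genes (20.3%), and both ZZ values above both ZW values in 2009 (17.1%). With 2 pools against 2, such an order has a two-sided p of 0.333 in an exact permutation test. It is therefore frequent without any sex difference, and below it only describes the genes. The first ZZ library was the lower of the ZZ pair in 75.3% of the genes with both ZW values above ZZ, and the higher of the pair in 70.7% of those with both ZZ values above ZW.

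**Figure D1:**
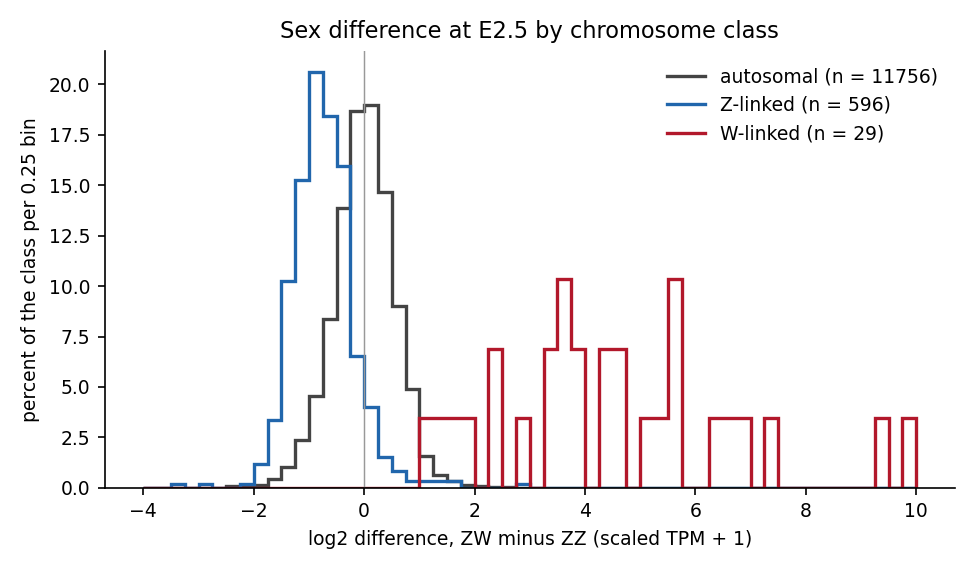
Distribution of the log2 difference (ZW minus ZZ) at E2.5 over autosomal, Z-linked and W-linked genes, as the percent of each class in bins of 0.25. The autosomal genes centre on 0.00, the Z-linked genes on -0.76 and the W-linked genes lie between 1.02 and 9.82.

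The 3 autosomal genes that passed were small nucleolar RNA genes of 66 to 73 bases, each with under 10 reads in any library. Small nucleolar RNAs are processed from introns of host genes and guide modification of ribosomal RNA. ENSGALG00000024758, of 72 bases, had 3 and 9 reads in ZW and none in ZZ, that is 7.62 and 23.2 TPM in ZW. The ZW mean was at least 2.97-fold higher than 3 reads per ZZ library would give. This bound takes the ZW reads as exact and rests mainly on the second ZW library, since the first had only 3 reads. Its log2 difference was 3.85 with a pseudocount of 1 (standard error 0.59, adjusted p = 0.00429). ENSGALG00000024890 (chromosome 3, 56860984 to 56861056, minus strand, GRCg6a) lies within *RPS12*, a gene of the small ribosomal subunit, and had 3 and 2 reads in ZW and none in ZZ (adjusted p = 0.0326). ENSGALG00000025003 (chromosome 1, 187135952 to 187136017, minus strand) lies within a gene without a name and had none in ZW and 4 and 3 reads in ZZ (adjusted p = 0.0263). No fold is given for ENSGALG00000024890 and ENSGALG00000025003, which had 4 reads or fewer in every library. All 3 calls were lost in limma-voom on the recovered reads, with adjusted p of 0.536 for ENSGALG00000024758, 0.626 for ENSGALG00000024890 and 0.720 for ENSGALG00000025003. The call of ENSGALG00000024758 held without the first ZW library (adjusted p = 0.00175 by limma) and was lost without any of the other 3 (0.0545 to 0.949), and the other calls were lost without any single library (0.0545 to 0.998). Whether the few reads come from the small RNAs themselves or from longer transcripts that overlap them was not tested.

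None of the autosomal genes with a name passed the adjusted test. *gga-mir-12282* (adjusted p = 0.00131), *TNNC1* (0.00647), *SIX3* (0.00729), *PRC1* (0.0165) and *CRIP1* (0.0351) passed when the test was limited to genes averaging at least 5 TPM, and *NSMF* (0.0329), *TNNC1* and *SIX3* (both 0.0379) when only genes of 200 bases or longer were. Over all alternatives the adjusted p of these 6 genes ran between 5.36e-07 and 0.998, by limma. *MT3*, outside these 6, also passed among genes averaging at least 5 TPM (adjusted p = 0.03 by limma). It had 124 and 82.0 TPM in ZW and 34.3 and 37.6 TPM in ZZ. Genes without a name passed too, by limma. ENSGALG00000049372 (82 and 31 reads in ZW, 644 and 249 in ZZ) had an adjusted p of 0.000939 in the first set and 0.0292 in the second. ENSGALG00000048187 (15 and 38 reads in ZW, 158 and 148 in ZZ) had 0.00175 and 0.0267, and 0.0393 with values centred by gene length. ENSGALG00000024984, of 78 bases (16 and 8 reads in ZW, 6 and 2 in ZZ), had 0.0165 in the first set. The 12 described first are the named autosomal genes with the largest log2 difference in favour of ZW among those without overlap, with an unadjusted p under 0.05 and a mean of 10 TPM or more in the higher sex. They were chosen by this difference, so their values describe them and test nothing. *SIX3*, a homeobox gene of the forebrain and eye, had 21.1 and 36.3 TPM in ZW and 5.53 and 5.84 TPM in ZZ, a log2 difference of 2.10 (standard error 0.45, adjusted p = 0.0913). *TNNC1*, which encodes the calcium-binding troponin subunit of heart and slow muscle, had 67.9 and 101 TPM in ZW and 19.5 and 30.5 TPM in ZZ, a difference of 1.72 (standard error 0.37, adjusted p = 0.0949). In both genes the lower ZW library was over 2 times the higher ZZ library.

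*MPZL1*, which encodes a cell surface glycoprotein, had 19.6 and 19.3 TPM in ZW and 5.26 and 4.01 TPM in ZZ. *CRIP1*, which encodes a small LIM-domain protein, had 38.5 and 43.4 TPM in ZW and 8.95 and 16.8 TPM in ZZ. Both genes had ZW pools close to each other and well above both ZZ pools, with adjusted p of 0.211 and 0.213. *CRABP2*, which carries retinoic acid inside cells, had 15.4 and 16.5 TPM in ZW and 5.78 and 3.81 TPM in ZZ. *RBP4A*, a retinol-binding protein gene, had 13.2 and 8.64 TPM in ZW and 2.08 and 3.90 TPM in ZZ. *PLAC8L1* had 13.8 and 32.2 TPM in ZW and 2.15 and 9.89 TPM in ZZ. The adjusted p of these 3 genes ran from 0.41 to 0.446, and *PLAC8L1* was the least even between pools.

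The other 5 of the 12 were small RNA genes under 200 bases: *gga-mir-12282*, *gga-mir-454*, *SNORD24*, *SNORD79* and *U8*. *gga-mir-12282*, a microRNA gene of 66 bases on chromosome 8, had the largest difference, with 47.1 and 25.4 TPM in ZW and 3.85 and 9.27 TPM in ZZ (log2 difference 2.34, standard error 0.49, adjusted p = 0.0817). These values rest on 17 and 9 reads in ZW and 2 and 5 reads in ZZ.

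In all of the 12 genes with the largest difference in favour of ZZ, chosen in the same way, the first ZZ library was the higher of the ZZ pair. *PRC1*, which encodes a microtubule crosslinker of the central spindle, had 3.74 and 2.61 TPM in ZW and 26.9 and 13.1 TPM in ZZ, a log2 difference of -2.26 (standard error 0.51, adjusted p = 0.118). *MBOAT1*, a lysophospholipid acyltransferase gene, had 3.01 and 0.382 TPM in ZW and 13.4 and 8.79 TPM in ZZ, a difference of -2.34 (standard error 0.59, adjusted p = 0.227). In both genes the lower ZZ library was over 2 times the higher ZW library.

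In 10 of the 12 genes, *PRC1* among them, the first ZZ library was over 2 times the second. *FEM1A*, which encodes a substrate receptor of a ubiquitin ligase, had 2.31 and 2.18 TPM in ZW and 22.1 and 3.57 TPM in ZZ. *TDRKH*, whose product takes part in piRNA trimming in mice, had 4.90 and 5.09 TPM in ZW and 35.9 and 8.30 TPM in ZZ. *MARS*, a methionyl-tRNA synthetase gene, had 2.95 and 3.98 TPM in ZW and 25.7 and 6.84 TPM in ZZ. Without the first ZZ library the median log2 difference of the 12 genes was -0.90 and without the second -2.62, against -1.69 with both. The same order of libraries held for *SLC27A4*, a fatty acid transporter gene, *TBCC*, a tubulin folding cofactor gene, *VAT1L* and *LIMS2*, a focal adhesion gene. *STK4*, a kinase gene of the Hippo pathway, had 3.36 and 11.9 TPM in ZW and 29.6 and 15.9 TPM in ZZ. The adjusted p of the 12 genes ran from 0.118 to 0.532. The first ZZ library also held the highest levels of the leukocyte markers *CSF1R*, with 0.724 and 0.173 TPM in ZW and 6.82 and 0.256 TPM in ZZ, and *SPI1*, with 0.329 and 0 TPM in ZW and 4.56 and 0.0550 TPM in ZZ. The other defining leukocyte marker, *PTPRC*, was highest in the second ZZ library, with 0.880 and 0.573 TPM in ZW and 1.07 and 1.62 TPM in ZZ. Their part in these differences was not tested.

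**Figure D2:**
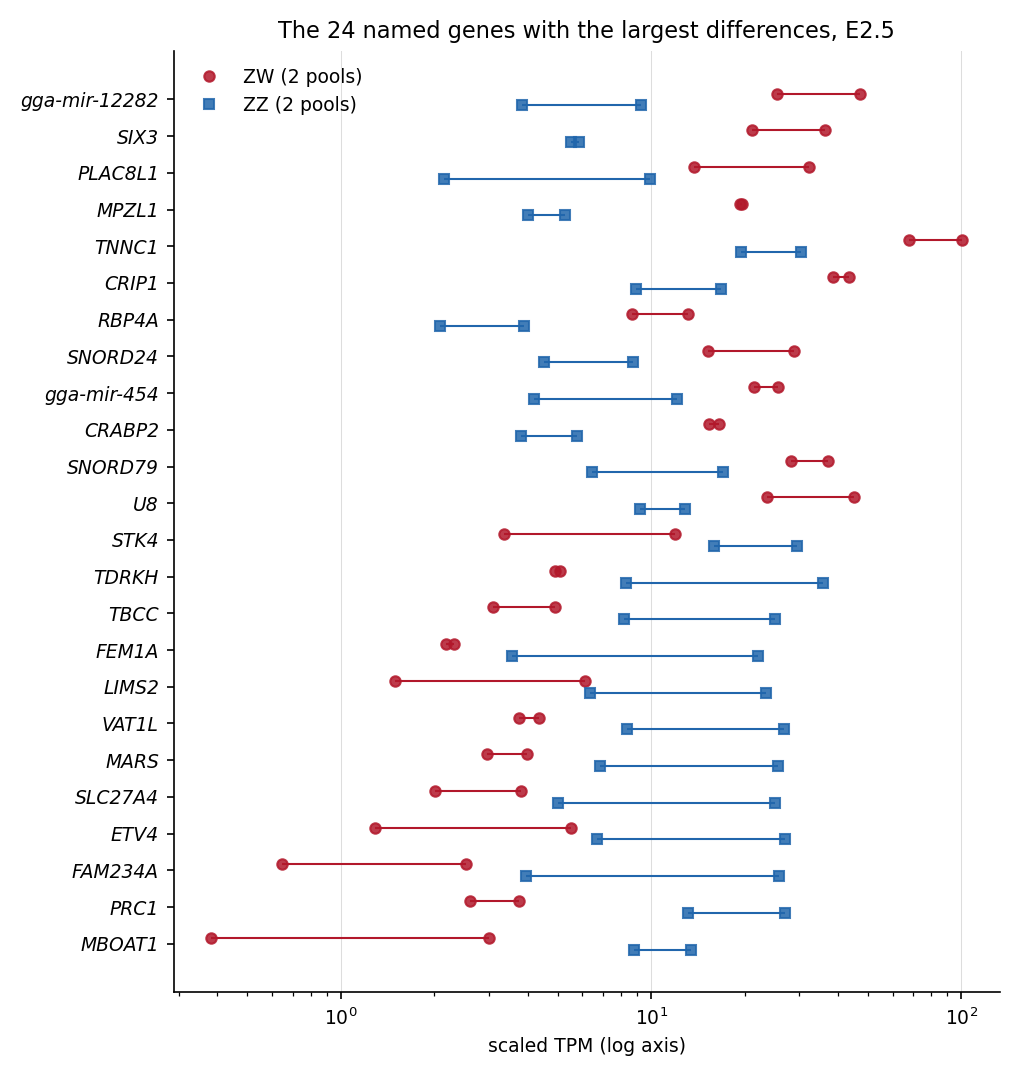
Scaled TPM of the 24 named genes with the largest differences at E2.5, on a log axis, with ZW pools as circles and ZZ pools as squares joined by a line per sex. The 12 genes from *gga-mir-12282* to *U8* are higher in both ZW pools and the 12 from *STK4* to *MBOAT1* in both ZZ pools, and the ZZ pools lie far apart in most of the second set.

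The study had named 3 autosomal genes as male-biased at E2.5 from these same libraries, so their direction here is no independent evidence. It called them with DESeq2 at a log2 difference of 3 or more in size. The differences below carry a pseudocount of 1, which understates those of low genes, so the sizes are not alike. Over the alternatives they ran from -3.70 to -2.37 for *NSMF*, -3.48 to -1.04 for *FAM234A* and -6.01 to -1.47 for *DEF8*. *NSMF*, which encodes a synapse-to-nucleus messenger in neurons, had 0.471 and 0.599 TPM in ZW and 6.95 and 8.35 TPM in ZZ, a log2 difference of -2.49 (standard error 0.53, adjusted p = 0.0913). *FAM234A* had 0.645 and 2.53 TPM in ZW and 25.9 and 3.94 TPM in ZZ, a difference of -2.26 (standard error 0.70, adjusted p = 0.41). *DEF8* had no read in ZW and 2.67 and 1.76 TPM in ZZ, so that ZZ was at least 10.8-fold higher than 3 reads per ZW library would give (adjusted p = 0.428). None of the 3 overlapped between the sexes, and *NSMF* was the evenest between pools of a sex.

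Genes of the translation and respiratory machinery had higher values in ZW than in ZZ as groups, although no member passed the adjusted test. Cytosolic ribosomal protein genes had a median log2 difference of 0.91, against 0.00 over all autosomal genes. Of the 65 tested, 62 had both ZW values above both ZZ values (95.4%, against 20.3% of all autosomal genes) and none the reverse (17.1% of all), and 37 were higher in ZW at an unadjusted p under 0.05 (3.84% of all). Their sum was 109174 and 100387 TPM in ZW and 45224 and 69534 TPM in ZZ. *RPL36*, of the large subunit, had 2273 and 1838 TPM in ZW and 768 and 1014 TPM in ZZ, a log2 difference of 1.21 (standard error 0.42, adjusted p = 0.501). *RPL22L1*, a ribosomal protein L22-like gene, had 1006 and 1181 TPM in ZW and 361 and 646 TPM in ZZ (log2 difference 1.17, standard error 0.40). In 63 of the 65 genes the first ZZ library was the lower of the ZZ pair, and without it the median was 0.60. Without the scaling the median was 0.54 over these genes and -0.32 over all autosomal genes.

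Mitochondrial ribosomal protein genes had a median of 0.56 over the 64 tested, of which 47 lay without overlap above ZZ and none below. *MRPL43*, of the large mitochondrial subunit, had 327 and 260 TPM in ZW and 141 and 182 TPM in ZZ. *MRPL10* had a lower ZW mean, with 43.6 and 21.5 TPM in ZW and 49.3 and 38.8 TPM in ZZ, and overlapped between the sexes. Subunits of complex I, the NADH dehydrogenase of the respiratory chain, had a median of 0.76, with 27 of 31 above ZZ without overlap and none below. *NDUFV3*, a small accessory part of the enzyme, had 122 and 103 TPM in ZW and 46.9 and 62.9 TPM in ZZ, a log2 difference of 1.03 (standard error 0.34, adjusted p = 0.446). *NDUFS1*, the largest core subunit, had 66.9 and 48.0 TPM in ZW and 136 and 63.2 TPM in ZZ. Without the first ZZ library the medians were 0.25 for mitochondrial ribosomal proteins and 0.39 for complex I, and without the second 0.85 and 1.11. Without the scaling they were 0.19 and 0.39. Proteasome subunits had a median of 0.35 and eukaryotic initiation factors 0.20, with 12 of 30 (40.0%) and 14 of 46 members (30.4%) above ZZ without overlap and 3 and 6 below, against 20.3% and 17.1% of all autosomal genes. The shares of the proteasome list lay nearer to those of genes of like length and level, given below.

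The difference of an autosomal gene moved with its length and its level. Genes over 500 and up to 1000 bases had a median log2 difference of 0.38, with 41.7% higher in both ZW libraries, while genes over 3000 and up to 5000 bases had a median of -0.12 and 12.3%. Among genes averaging 500 TPM and above, the median was 0.58 and 68.0% were higher in both ZW libraries, against -0.09 and 14.6% for genes of 5 to 20 TPM. Genes of 1000 bases or shorter took 29.8% and 30.7% of the TPM outside hemoglobin in ZW and 21.1% and 26.4% in ZZ. Among the 328 other genes whose length and level fell in the central range of the cytosolic ribosomal proteins, that is from the 10th to the 90th percentile of both, the median was 0.53 and 66.5% were higher in both ZW libraries. The same comparison gave 0.37 for the 887 genes like complex I subunits and 0.23 for the 1278 genes like mitochondrial ribosomal proteins. For the 1497 genes like proteasome subunits it gave 0.18, with 34.0% higher in both ZW libraries and 7.75% in both ZZ libraries. The 3234 genes like initiation factors had a median of 0.0035, with 20.7% and 16.2%. The part that length and level have in the group differences was not tested further. Long noncoding RNA genes, with a median length of 1465 bases, had a median of 0.31 over the 909 tested.

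**Figure D3:**
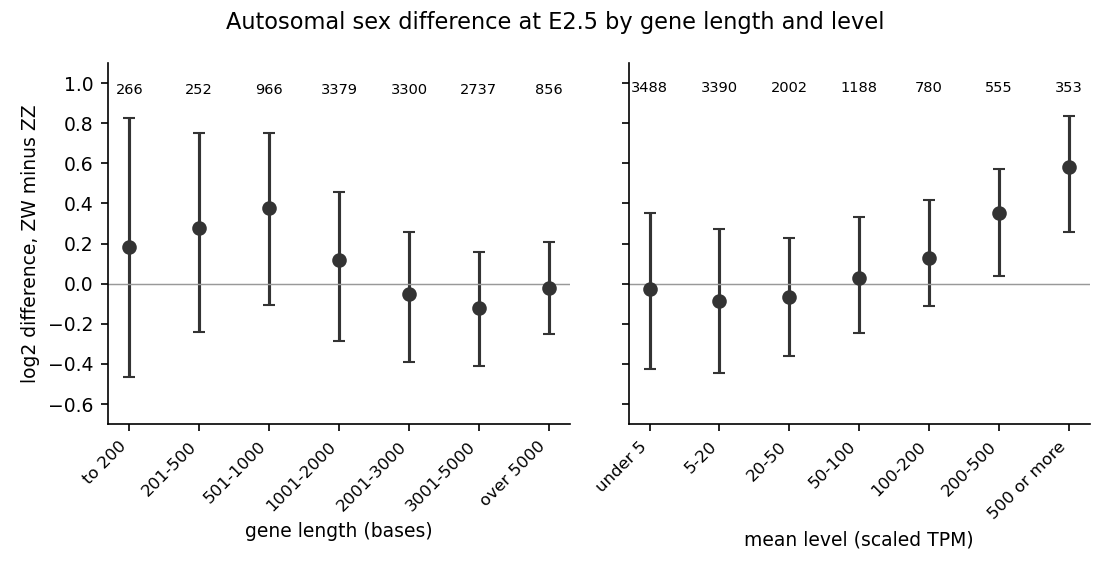
Median log2 difference (ZW minus ZZ) of autosomal genes at E2.5 by gene length in bases (left) and by mean level in scaled TPM (right). Bars run between the quartiles of the genes and the numbers above give the genes in each bin. The median is 0.38 in the bin that ends at 1000 bases, -0.12 in the bin that ends at 5000 bases and 0.58 in the bin of highest level.

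**Figure D4:**
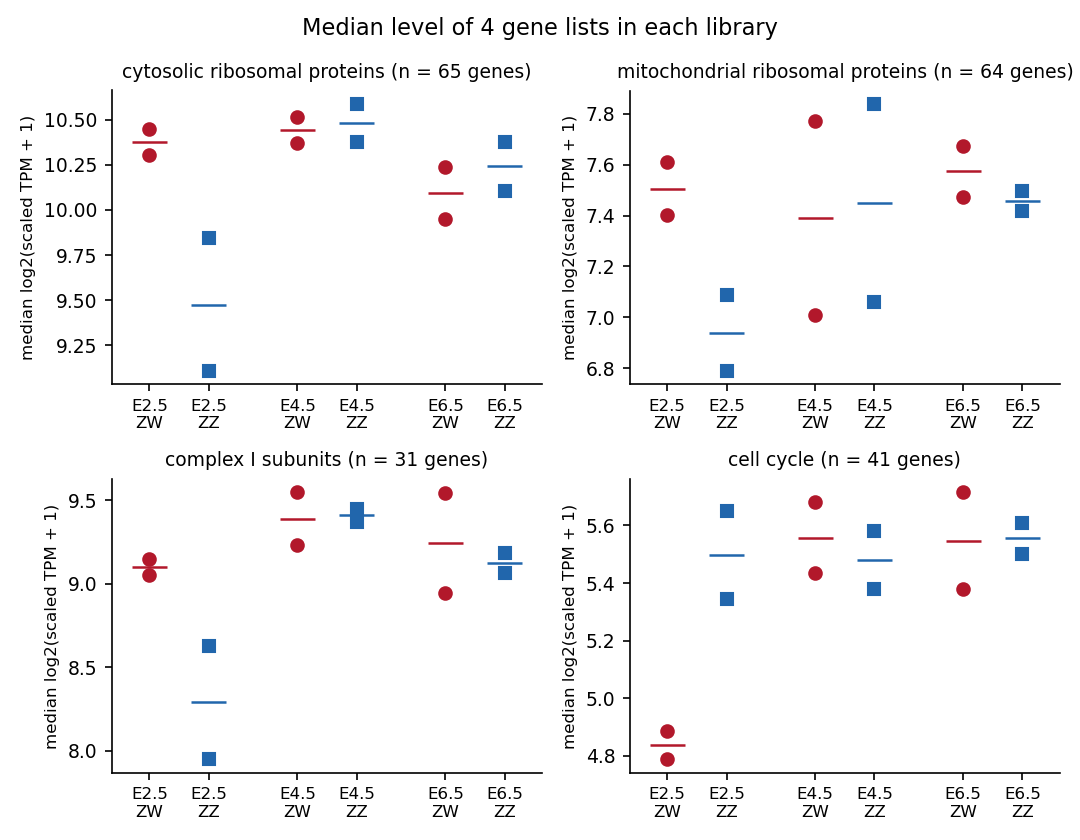
Median log2(scaled TPM + 1) of 4 gene lists in each of the 12 libraries, with ZW as circles, ZZ as squares and a line at the mean of 2 pools. At E2.5 the 2 ZZ libraries lie lowest of all 12 for cytosolic ribosomal proteins (9.11 and 9.84) and for complex I, and the 2 ZW libraries lie lowest for cell cycle genes (4.79 and 4.89).

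At later stages the sexes lay closer for these groups. For cytosolic ribosomal proteins, the median of log2(scaled TPM + 1) over the 65 genes was 10.45 and 10.30 in ZW at E2.5 and 9.11 and 9.84 in ZZ. In the 8 libraries of E4.5 and E6.5 it lay between 9.95 and 10.59. In a fit of all 12 libraries the list's median sex difference came to 0.93 for E2.5, 0.03 for E4.5 and -0.15 for E6.5. The same fit gave 0.78, -0.04 and 0.05 for complex I. The difference between stages was tested for single genes only. For E6.5 against E2.5, 0 of 14154 genes (0%) passed an adjusted p under 0.05 with limma. Of the 13452 autosomal genes among them, 596 had an unadjusted p under 0.05. The smallest adjusted p of an autosomal gene was 0.144.

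By the median, cell cycle genes had lower values in ZW cPGCs than in ZZ cPGCs, and again no member passed the adjusted test. Their summed level overlapped between the sexes, with 4363 and 4330 TPM in ZW and 4070 and 5097 TPM in ZZ. Their median log2 difference was -0.50 over the 41 tested, with 3 higher in both ZW libraries (7.32%, against 20.3% of all autosomal genes) and 20 in both ZZ libraries (48.8%, against 17.1%). At an unadjusted p under 0.05, 1 was higher in ZW and 7 in ZZ, against 3.84% and 3.32% of all. The 5 subunits of the MCM2 to MCM7 helicase tested, which unwinds DNA at replication forks, had log2 differences from -0.97 in *MCM5* to -0.56 in *MCM6*, and *MCM2* overlapped between the sexes. In each of these 5 subunits the first ZZ library was the higher of the ZZ pair. *MCM4* had 145 and 56.7 TPM in ZZ against 44.7 and 54.3 TPM in ZW. *GINS2*, part of the same replicative helicase complex, had 8.20 and 6.66 TPM in ZW and 31.8 and 18.6 TPM in ZZ, a log2 difference of -1.60 (standard error 0.45, adjusted p = 0.332). *CDT1*, which licenses replication origins, had 9.10 and 13 TPM in ZW and 62.8 and 19.0 TPM in ZZ, a difference of -1.58 (standard error 0.50, adjusted p = 0.423). *KIF11*, the motor that separates spindle poles, had 22.1 and 29.6 TPM in ZW and 51.9 and 57.3 TPM in ZZ, a difference of -1.06 (standard error 0.36, adjusted p = 0.479). The ZZ pools of *KIF11* were close to each other and those of *CDT1* far apart. Over the 41 genes tested, the first ZZ library was the higher of the ZZ pair in 19 and the lower in 22.

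The cyclin D gene *CCND3* went in the opposite direction, with 30.6 and 16.6 TPM in ZW and 8.72 and 11.5 TPM in ZZ (log2 difference 1.1, adjusted p = 0.549). *CDK1*, *PCNA* and *AURKA*, which mark dividing cells, had differences between 0.05 and 0.16 and overlapped between the sexes. The 5461 other genes in the central length and level range of the list had a median of -0.05. The list's median was -0.82 without the scaling, and in the fit of all 12 libraries the later medians were -0.04 (E4.5) and 0.04 (E6.5).

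No germ cell gene passed the adjusted test. Of the 24 autosomal markers tested, 2 were higher in both ZW libraries (8.33%, against 20.3% of all autosomal genes) and 8 in both ZZ libraries (33.3%, against 17.1%), with a median of -0.28, which was -0.11 to -0.24 with any single library left out and -0.65 without the scaling. *TDRD9*, a helicase gene of the piRNA pathway, had 22.8 and 14.7 TPM in ZW and 68.5 and 33.6 TPM in ZZ, a log2 difference of -1.34 (standard error 0.42, adjusted p = 0.41). *TFAP2C*, a transcription factor gene of germ cell specification in mammals, had 18.2 and 19.6 TPM in ZW and 107 and 23.7 TPM in ZZ, and *SOX3* had 140 and 103 TPM in ZW and 435 and 141 TPM in ZZ. For both, the second ZZ library was close to the ZW libraries. *NANOG*, given above, overlapped between the sexes. *GTSF1*, a piRNA pathway gene, had 3134 and 3243 TPM in ZW and 1445 and 2430 TPM in ZZ, a log2 difference of 0.77 (standard error 0.49, adjusted p = 0.675). *DAZL* had a log2 difference of 0.15 (standard error 0.46), which was -0.22 without the scaling.

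Of the 36 genes tested on the FGF, insulin and KIT list, 4 were higher in both ZW libraries (11.1%, against 20.3% of all autosomal genes) and 9 in both ZZ libraries (25%, against 17.1%), with a median of -0.09. Chicken PGCs depend on FGF2 in culture. *FGF4*, a ligand gene, had 0.313 and 0.318 TPM in ZW and 3.04 and 5.23 TPM in ZZ, with 1 read in each ZW library and a log2 difference of -1.93 (standard error 0.54, adjusted p = 0.332). *SPRY1*, a feedback inhibitor that FGF signalling induces, had 16.9 and 6.54 TPM in ZW and 49.9 and 21.4 TPM in ZZ, a log2 difference of -1.54 (standard error 0.50, adjusted p = 0.446). *ETV4*, an ETS factor gene induced by the same pathway, had 5.51 and 1.28 TPM in ZW and 27.1 and 6.68 TPM in ZZ, a difference of -1.93 (standard error 0.65, adjusted p = 0.479). In all 3 genes both ZZ values lay above both ZW values.

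Retinoic acid is a signal for entry of germ cells into meiosis. Of the 12 retinoic acid genes tested at E2.5, 4 were higher in both ZW libraries (33.3%, against 20.3% of all autosomal genes) and 1 in both ZZ libraries (8.33%, against 17.1%), with a median of 0.35, or -0.0012 without the scaling. Beside *CRABP2*, *LRAT*, which stores retinol as esters, had 24.6 and 13.4 TPM in ZW and 8.43 and 9.55 TPM in ZZ. *CYP26C1*, which degrades retinoic acid, had 2.63 and 1.46 TPM in ZW and 16.1 and 3.43 TPM in ZZ, a log2 difference of -1.55 (standard error 0.63, adjusted p = 0.549). *STRA8*, which retinoic acid induces at entry into meiosis, had 21.3 and 11.6 TPM in ZW and 21.5 and 22.5 TPM in ZZ. Only *CRABP2* and *LRAT* among these had both ZW values above both ZZ values.

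**Figure D5:**
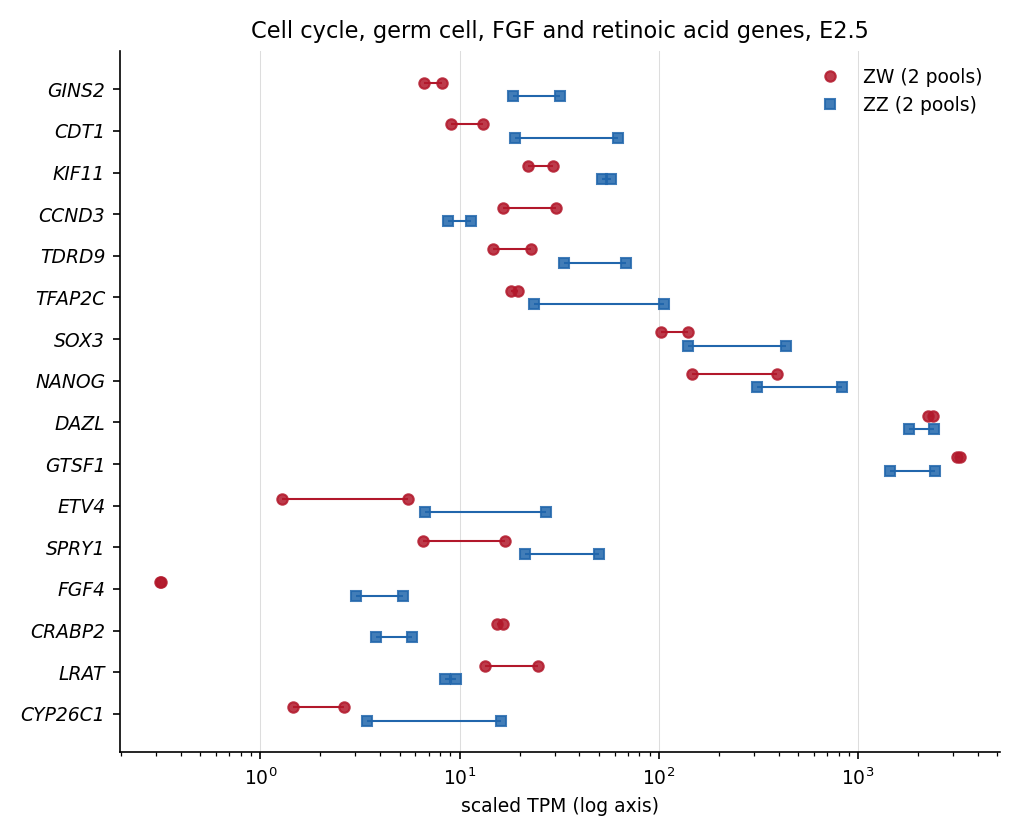
Scaled TPM at E2.5, on a log axis, of cell cycle genes (*GINS2* to *CCND3*), germ cell genes (*TDRD9* to *GTSF1*), FGF pathway genes (*ETV4* to *FGF4*) and retinoic acid genes (*CRABP2* to *CYP26C1*), with ZW pools as circles and ZZ pools as squares. *NANOG* and *DAZL* overlap between the sexes, and *KIF11* shows 22.1 and 29.6 TPM in ZW below 51.9 and 57.3 TPM in ZZ.

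Of the 34 genes of the TGF-beta, BMP and activin list, 5 were higher in both ZW libraries (14.7%) and 6 in both ZZ libraries (17.6%), near the 20.3% and 17.1% of all autosomal genes. The median was 0.05, and *SMAD9*, a BMP transducer gene, had 6.30 and 6.40 TPM in ZW and 22.1 and 10.4 TPM in ZZ. *DNMT3A*, a DNA methyltransferase gene, had 18.3 and 27.5 TPM in ZW and 65.1 and 32.2 TPM in ZZ (adjusted p = 0.549). Of the 24 genes tested on its list, of DNA methylation and Polycomb, 2 were higher in both ZW libraries (8.33%) and 5 in both ZZ libraries (20.8%), with a median of -0.08. *CD9*, a tetraspanin gene of the migration and adhesion list, had 42.0 and 37.6 TPM in ZW and 15.1 and 20.6 TPM in ZZ (log2 difference 1.12, adjusted p = 0.479). Of the 29 genes tested on that list, 5 were higher in both ZW libraries (17.2%) and 6 in both ZZ libraries (20.7%), with a median of -0.11. Of 32 autosomal genes of gonadal sex determination, 9 reached the level needed for testing, with a median of 0.00. Of the metabolic genes often taken as reference, *GAPDH* had 4447 and 3106 TPM in ZW and 3015 and 3925 TPM in ZZ, a log2 difference of 0.11 that was -0.26 without the scaling. The actin gene *ACTB* had 6449 and 4295 TPM in ZW and 6594 and 6536 TPM in ZZ.

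The genes that the study called female-biased in gonadal PGCs at E6.5 were then examined at E2.5. Of the 282 autosomal genes on that list, 91 were expressed enough to be tested at E2.5, with a median log2 difference of 0.29, or -0.01 without the first ZW library. Of these, 20 were higher in both ZW libraries (22.0%) and 12 in both ZZ libraries (13.2%), against 20.3% and 17.1% of all autosomal genes. By sign alone, 67 of the 91 had a log2 difference above 0, against 5923 of all 11756. In the fit of all 12 libraries, 251 genes of the list were tested, and 127 were above 0 at E2.5 (median 0.015). At E4.5, 51 of the 251 were above 0 (median -0.32). Over all 13452 autosomal genes of that fit, 6818 were above 0 at E2.5 and 7234 at E4.5. Only 91 of the 251 reached 1 TPM in 2 or more E2.5 libraries. The rest could enter that fit through the E6.5 libraries, in which the list had been called. Their signs at E2.5 and E4.5 are therefore not like those of all genes and test nothing. *RGN*, a calcium-binding enzyme gene, had 73.6 and 46.8 TPM in ZW and 44.8 and 49.7 TPM in ZZ, and *CYB5A*, a cytochrome b5 gene, had 143 and 94.8 TPM in ZW and 75.7 and 97.6 TPM in ZZ. *GATM*, an enzyme gene of creatine synthesis, had 8.52 and 2.36 TPM in ZW and 11 and 4.78 TPM in ZZ. The sexes overlapped in all 6 autosomal genes of this kind that the study followed by RT-qPCR and that were tested at E2.5, the others being *HPGDS*, *UPB1* and *APOA1*.

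The named genes were then followed in the separate libraries of later stages. *SIX3* had 20 and 34.5 TPM in ZW and 5.08 and 5.57 TPM in ZZ at E2.5 when all 12 libraries were scaled together. At E4.5 it had 26.1 and 8.94 TPM in ZW and 0.932 and 1.92 TPM in ZZ, and at E6.5 21.7 and 14.8 TPM in ZW and 14.3 and 7.50 TPM in ZZ, without overlap at any stage. Its log2 difference was 2.79 at E4.5 (unadjusted p = 0.000333, adjusted p = 0.205) and 0.73 at E6.5 (adjusted p = 1). *MPZL1* had 6.59 and 27.6 TPM in ZW and 0 and 11 TPM in ZZ at E4.5, where the sexes overlapped and the difference was 2.09. Between E4.5 pools of the same number, ZW was the higher each time. At E6.5 the difference was 0.58. *gga-mir-12282*, with the largest E2.5 difference of the 12, had differences of -0.36 (E4.5) and -1.61 (E6.5), the reverse of its direction at E2.5, as did ENSGALG00000024758 with -0.65 and -0.46. *TNNC1* had 29.8 and 34.8 TPM in ZW and 36.2 and 28.8 TPM in ZZ at E4.5, where the sexes overlapped. Of the 12 genes in favour of ZW, 10 had the same direction at E4.5 and 9 did so for E6.5, and of the 12 in favour of ZZ, 8 and 10. Over all autosomal genes higher in ZW at E2.5, 58.6% had the same direction at E4.5 and 53.3% later, while for those higher in ZZ the shares were 48.8% and 46.5%. The 12 per direction had been picked among genes with an unadjusted p under 0.05 at E2.5. Over all such genes the shares were 59.5% and 53.5% for the 452 higher in ZW, and 62.1% and 48.5% for the 390 higher in ZZ.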

How the data were processed

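Sorted PGCs were profiled by RNA-seq with the SMART-seq v4 and Nextera XT kits. The authors trimmed reads with Trimmomatic 0.39, Trim Galore 0.6.6 and Cutadapt 3.1, aligned them to GRCg6a by STAR 2.7.3a and counted unique alignments per gene by featureCounts 2.0.1. The authors deposited TPM per gene and library with gene lengths and positions (the tool that computed TPM is not given in the sources used here). TPM times length was a whole number of reads for 100% of the low values examined, so reads were recovered. PCR copies are not separate molecules, and bounds based on 3 reads cover counting error only.

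The 4 E2.5 libraries were scaled by median of ratios and compared with limma 3.58.1 in R 4.3.3 (lmFit, eBayes with a trend) on log2(TPM + 1), which understates changes of low genes. Genes of all chromosomes with 1 TPM in at least 2 libraries were fitted, and p-values were adjusted by Benjamini-Hochberg over all 12381. An exact permutation test of 2 pools against 2 cannot give a p under 0.333, so limma p-values rest on the spread shared across genes. The stage comparison was an interaction term on all 12 libraries.

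The genes and lists were chosen with earlier results of these data known. Named genes were every autosomal gene with an adjusted p under 0.05, the 12 per direction described in the text, up to 3 members per list and direction with the smallest p, defining markers, genes of lists chosen by the study, the hemoglobin genes (given as shares and by *HBA1*), *GAPDH*, *ACTB* and the 5 genes of highest TPM, of which 4 are hemoglobin genes and the other is *CALM2*, with 16400 and 19399 TPM in ZW and 8732 and 17653 TPM in ZZ. Some of the named list members are given only within counts. *MCM5*, *MCM4*, *MCM6*, *MCM2*, *CDK1*, *PCNA*, *AURKA*, *RPS12* and *MT3* were named after their values were seen. The same holds for ENSGALG00000049372, ENSGALG00000048187 and ENSGALG00000024984. Alternatives were no scaling, TPM without hemoglobin genes, a pseudocount of 0.1, no filter, a mean of 5 TPM, limma-voom on recovered reads, the replicate block, all 12 libraries, library weights and each library left out. Genes of 200 bases or longer and values centred by gene length (20 bins) were added after seeing the data. The fit was tested on simulated data, but only with planted changes larger than the autosomal differences given here, so that test does not bear on them. DESeq2, the tool of the study for sex-biased genes, was not run here. Of the tests, only limma-voom used the recovered reads. Gene names are those of the table. Python 3.11.15 and matplotlib 3.10.9 were used for tables and plots.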

Additional observations from a re-analysis of the deposited data

How the results depend on the processing

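With 2 pools per sex, calls moved with the settings. Of autosomal genes higher in ZW (2 as reported), 1 was called without scaling, 1 in TPM without hemoglobin genes, 1 with a pseudocount of 0.1, 7 among genes with a mean of 5 TPM, and 0 without a filter, in limma-voom and in all 12 libraries. Of those higher in ZZ (1 as reported), 0 were called under all of these but no scaling (1) and the mean of 5 TPM (3), and 3 among genes of 200 bases or longer and 2 with values centred by length, both chosen after seeing the data. At an unadjusted p under 0.05, 453 (ZW) and 370 (ZZ) genes were higher in limma-voom, 454 and 362 without a filter and 325 and 213 in all 12 libraries. Past the log2 threshold of 3 (1 gene as reported), 2 genes were called without scaling, 2 with length centring, and 0 without a filter, in limma-voom, in all 12 libraries and among genes of 200 bases or longer. With single libraries left out, the counts were 0 to 2 in ZW, 0 to 1 in ZZ and 0 to 3 past the log2 threshold, with 0 each without the first or the second ZZ library.

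The labels do not say that a replicate number marks a shared batch, and the deviations of same-numbered pools correlated at 0.224 at E2.5. At E4.5 the size factors followed the number, with 1.16 (ZZ) and 1.17 (ZW) in the first pools and 0.843 (ZZ) and 0.837 (ZW) in the second. The p-values given for E4.5 took no account of this. With the replicate block, 67 genes were called higher in ZW and 104 in ZZ, and 0 genes in the comparison of E6.5 with E2.5 (1585 at an unadjusted p under 0.05). Of the 71 named genes, 32 passed with the block and not as reported.

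The median autosomal log2 difference was -0.32 without scaling, -0.24 without hemoglobin genes, -0.0092 without a filter, 0.011 at a mean of 5 TPM, 0.0091 in limma-voom, 0.0078 in all 12 libraries, 0.13 with length centring and 0.0046 to 0.019 with single libraries left out. Genes without overlap numbered 845 (ZW above) and 4026 (ZZ above) without scaling, 1315 and 3424 without hemoglobin genes, and 3871 to 4469 and 3415 to 4405 with single libraries left out, where fewer libraries have to be ordered.

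Of 71 named genes, 8 changed sign under at least 1 of the alternatives. Without scaling, the retinoic acid list was at -0.0012, *RGN* at -0.055, *DAZL* at -0.22, *GAPDH* at -0.26 and *HBA1* at -0.22, and without hemoglobin genes *DAZL* was at -0.13 and *GAPDH* at -0.17. With single libraries left out, the E6.5 female-biased list ran from -0.015 to 0.43, *RGN* from -0.013 to 0.63, *HPGDS* from -0.58 to 1.1, *GATM* from -1.31 to 0.19, *APOA1* from -1.24 to 0.47, *UPB1* from -1.05 to 0.34, *DAZL* from -0.056 to 0.36, *GAPDH* from -0.15 to 0.37 and *HBA1* from -3.04 to 3.35. The cause of these changes was not tested.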
